A study of Mus musculus with 3 samples.

Results

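The genes described here encode 10 proteins that fold, modify and crosslink collagen, chosen by name from the 55471 features of the deposited table. They are the chaperones Serpinh1, Fkbp10 and Rcn3, the prolyl 4-hydroxylase subunits P4ha1 and P4ha2, the lysyl hydroxylases Plod1, Plod2 and Plod3, and the lysyl oxidases Lox and Loxl2. Each symbol had 1 row, and 9 of the 10 reached the mean of 1 TPM (TPM being a length-scaled abundance that sums to the same total in each library) that counted as measured, as did 14527 features in all. The gene below that mean was Loxl2. The set was drawn up with the values of these libraries known, so every value of the members is a description and none was tested.

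The libraries come from a stepwise selection in mice of JC, a mouse mammary carcinoma line, with the genotype label WT on each. JC-WT carries the treatment label WT and is not described further. JC-P cells came out of mammary fat pad tumours at day 14, per the labels' protocol, although their treatment label reads metastasis like that of JC-M3. JC-M3 was recovered from lung lesions at day 28 after tail vein injection of JC-P descendants, over 3 rounds. Messenger RNA of the cultured cells gave 1 library per population, so no difference has a replicate check. Reads assigned to genes came to 18093426 (JC-WT), 22132593 (JC-P) and 23386413 (JC-M3). Of 7 epithelial markers looked up for the cell type label epithelial-like, 2 were measured, both at least 2-fold lower in JC-M3 than in JC-P. Krt8 stood at 1503 TPM (JC-WT), 1873 TPM (JC-P) and 681 TPM (JC-M3), and Krt18 at 48.6 TPM (JC-WT), 48.5 TPM (JC-P) and 18.4 TPM (JC-M3). Epcam had 0 reads throughout, Cdh1 stayed below 1 TPM, and Krt19, Krt5 and Krt14 averaged less than 1 TPM.

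Collagen chains are made in the endoplasmic reticulum, where prolyl 4-hydroxylases stabilise the helix and lysyl hydroxylases prepare lysines for sugars and crosslinks. Prolyl isomerases of the FK506-binding family and the collagen-specific chaperone HSP47, encoded by Serpinh1, assist folding. After secretion, copper-dependent lysyl oxidases convert lysines and hydroxylysines to aldehydes that crosslink the fibres. In breast tumours these enzymes are known for their part in the stiffness of the matrix.

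RefSeq promoter sequences on GRCm38.p6 matched 6 members, Rcn3, Serpinh1, P4ha1, P4ha2, Plod1 and Plod3. The 250 bases before the RefSeq start are shown for 4 of them, 5′ to 3′ on the gene's strand, because these 4 differ in pattern. The pattern of Plod1, lowest in JC-P, is not among them. Relative to the gene bounds given below, the P4ha2 window lies inside the gene and the Rcn3 window overlaps its end. Rcn3 was far higher in JC-M3, Serpinh1 was nearly level, and P4ha1 and P4ha2 went in opposite directions. The windows lie at chr7:45092214-45092463 on the minus strand (Rcn3), chr7:99353240-99353489 on the minus strand (Serpinh1), chr10:59323046-59323295 on the plus strand (P4ha1) and chr11:54100674-54100923 on the plus strand (P4ha2). Capitals mark ACGTG on either strand, a form of the core bound by hypoxia-inducible factors and a part of other elements too. The form GCGTG was neither searched nor marked.
Rcn3: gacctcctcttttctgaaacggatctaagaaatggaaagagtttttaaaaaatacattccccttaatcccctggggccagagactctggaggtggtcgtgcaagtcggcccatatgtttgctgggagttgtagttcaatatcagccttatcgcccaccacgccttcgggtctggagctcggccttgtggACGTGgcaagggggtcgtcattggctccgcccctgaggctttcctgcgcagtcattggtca
Serpinh1: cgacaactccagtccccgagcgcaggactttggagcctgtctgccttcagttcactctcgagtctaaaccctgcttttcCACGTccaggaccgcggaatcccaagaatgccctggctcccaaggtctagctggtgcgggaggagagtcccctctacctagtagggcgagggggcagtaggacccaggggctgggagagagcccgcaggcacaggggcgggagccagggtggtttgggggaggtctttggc
P4ha1: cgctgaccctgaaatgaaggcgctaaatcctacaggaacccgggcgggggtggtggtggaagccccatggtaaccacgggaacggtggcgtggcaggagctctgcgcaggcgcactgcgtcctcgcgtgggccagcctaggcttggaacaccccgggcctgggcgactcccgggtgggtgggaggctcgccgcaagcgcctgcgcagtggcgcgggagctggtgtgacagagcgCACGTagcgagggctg
P4ha2: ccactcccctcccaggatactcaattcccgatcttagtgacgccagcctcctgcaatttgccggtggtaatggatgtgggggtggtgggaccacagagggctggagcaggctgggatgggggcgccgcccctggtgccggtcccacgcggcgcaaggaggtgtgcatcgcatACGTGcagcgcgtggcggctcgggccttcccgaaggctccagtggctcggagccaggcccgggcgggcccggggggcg
The form ACGTG occurred in 5 of the 6 promoters, in all but Plod1, which is not shown. It occurred in 16.6% of the 32851 promoters of the same length. Its distance from the start was -61 bases in Rcn3, -171 in Serpinh1, -16 in P4ha1, -78 in P4ha2 and -54 in Plod3, and it overlapped no other motif searched. The box GGGCGG occurred in 5 of 6 (32.7% of all promoters), CAGAC in 3 (42.2%), CCAAT in 2 (33.8%), TATAAA in 1 (12.4%), GGAATG in 1 (12.6%) and the CArG box in 0 (1.47%), each searched on both strands. The 6 promoters held 53.2% to 70.0% G and C, against a median of 52.4% over all promoters, and motif shares were not adjusted for base composition. A match describes letters and is not a binding site.

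Of the 9 measured members, 3 passed 2-fold upward in JC-M3 set against JC-P, and 0 passed it downward, where 3.82% of all measured features were higher and 5.38% lower. The 3 were Fkbp10, Rcn3 and Plod2, of which Fkbp10 counted as measured through JC-M3 alone. The same 3 passed 2-fold upward when JC-M3 was set against JC-WT, with 0 downward, beside 6.14% and 5.27% of all features. For JC-P against JC-WT it was Rcn3 alone, with 0 lower, beside 4.76% and 2.33%. The set was drawn up with these ratios known, so nothing is read from the counts, and the comparisons share libraries.

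**Figure D1:**
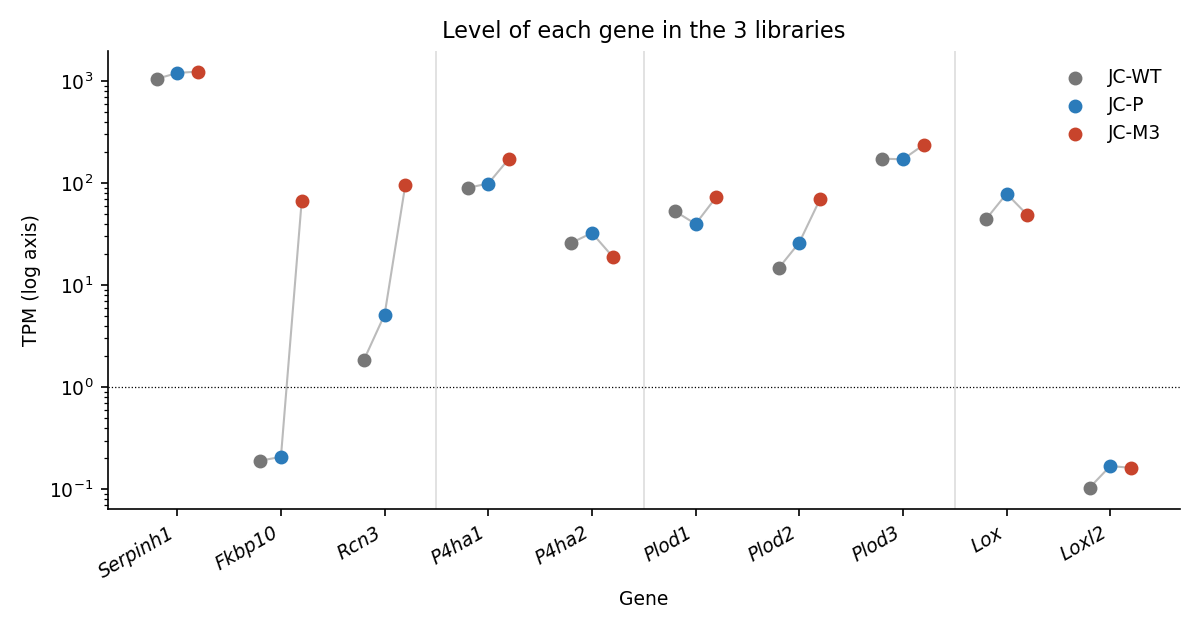
Level of each gene in TPM, on a log axis, with JC-WT in grey, JC-P in blue and JC-M3 in red, 1 library each; vertical lines separate chaperones, prolyl 4-hydroxylase subunits, lysyl hydroxylases and lysyl oxidases, and the dotted line marks 1 TPM. Fkbp10 and Rcn3 cover the widest range, Serpinh1 is the highest gene throughout, and Loxl2 lies below 1 TPM in each library.

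The median log2 ratio of the 9 measured members, computed from TPM + 0.5, was 0.19 for JC-P against JC-WT, 0.81 for JC-M3 against JC-P and 0.46 for JC-M3 against JC-WT. Over all measured features these medians were 0.010, -0.0076 and 0.0016 in the same order of comparisons. Ratios above 0 were seen for 7, 7 and 8 of the 9, beside 50.9%, 49.2% and 50.1% of all measured features. Nearest to the 2-fold limit, a log2 ratio of 1, were Rcn3 past it, at 1.27, and Lox short of it, at 0.83, when JC-P was set against JC-WT. With JC-M3 set against JC-P they were Plod2 past it, at 1.39, and Plod1 short of it, at 0.87. With JC-M3 set against JC-WT they were Plod2 past it, at 2.21, and P4ha1 short of it, at 0.95. Bracketed ranges after a fold or ratio are 95% exact counting intervals and leave out variation between cultures. In such bulk RNA, more cells that express a gene and more transcript per cell cannot be told apart.

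**Figure D2:**
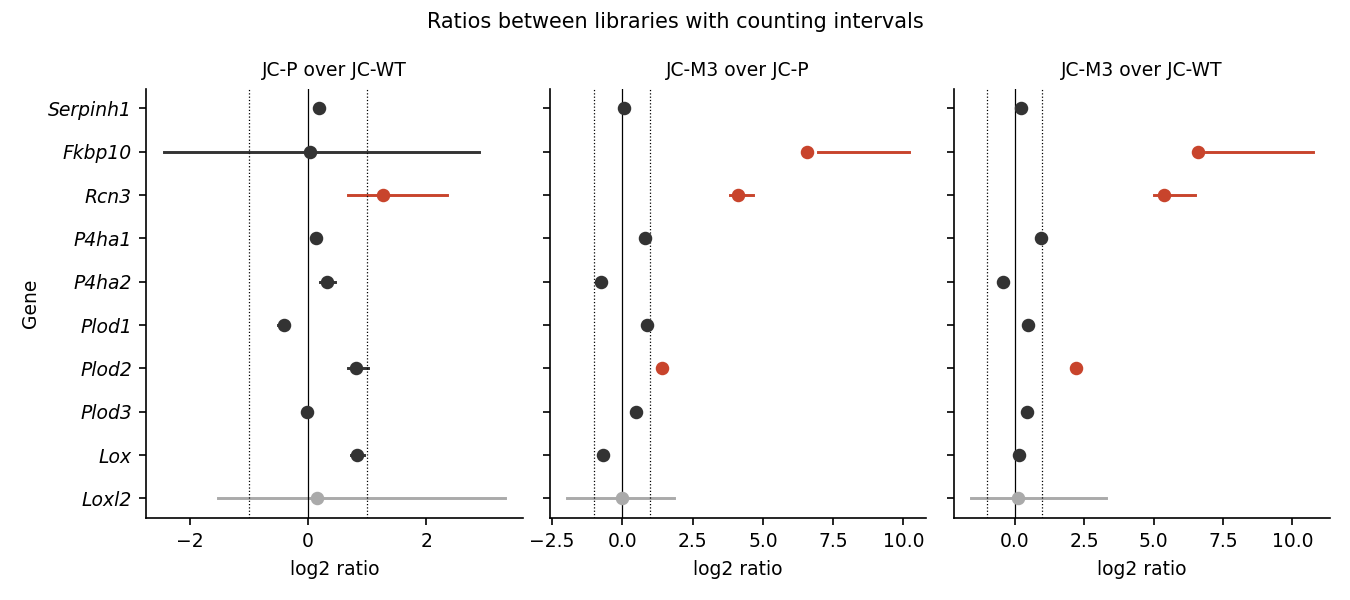
Log2 ratio of TPM + 0.5 (point) and 95% exact counting interval of the plain ratio (line) for each gene in the 3 comparisons; dotted lines mark 2-fold, red marks at least 2-fold higher and grey the gene below a mean of 1 TPM. For Fkbp10, with 3 JC-WT reads and 4 JC-P reads, the pseudocount pulls the points of both JC-M3 comparisons below their intervals.

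Fkbp10 encodes FKBP65, a prolyl isomerase of the endoplasmic reticulum that assists type I procollagen and, in humans, is needed with PLOD2 for telopeptide lysine hydroxylation. It lies on chromosome 11 from 100415697 to 100424824 on the plus strand (GRCm38), with 2935 bases of merged exons. Its level was 0.19 TPM (JC-WT), 0.21 TPM (JC-P) and 66.4 TPM (JC-M3), from 3, 4 and 1338 reads in that order. The gene was near the detection limit in JC-WT and JC-P and ranked 2835 among the measured features in JC-M3. JC-M3 was 320-fold above JC-P (125 to 1178) and 349-fold above JC-WT (119 to 1694). With the pseudocount the log2 values were 6.56 and 6.60, at rank 5 and rank 3 of all measured features, and they became 4.95 and 4.97 with a pseudocount of 2 and 7.76 and 7.84 with 0.1. JC-P and JC-WT could not be told apart at this depth, with a fold of 1.09 (0.18 to 7.43). Fkbp10 supplied 12.7% of the summed TPM of 6 FK506-binding protein genes of the endoplasmic reticulum in JC-M3, against 0.048% in JC-P.

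Fkbp10 overlaps Nt5c3b on the opposite strand, which stood at 66.4 TPM (JC-WT), 46.8 TPM (JC-P) and 50.7 TPM (JC-M3). Whether the counting used strand is not stated in the sources, so reads of overlapping genes cannot be told apart. Nt5c3b was thus well above Fkbp10 where Fkbp10 had 3 and 4 reads. The same limit holds for Plod3, which overlaps Znhit1 at 85.2 TPM (JC-WT), 81.6 TPM (JC-P) and 87.0 TPM (JC-M3), for Plod2, which overlaps Gm38391 at up to 2.61 TPM, and for Rcn3, which overlaps Gm45669 at up to 0.64 TPM. None of the 50-base windows of Fkbp10 transcripts occurs in transcripts of other genes.

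Rcn3 encodes a calcium-binding protein of the endoplasmic reticulum lumen that mice need for lung maturation. It lies on chromosome 7 from 45082913 to 45092221 on the minus strand. Its level was 1.84 TPM (JC-WT), 5.14 TPM (JC-P) and 96.3 TPM (JC-M3), from 17, 58 and 1134 reads. It was at least 2-fold higher at the JC-P stage, by 2.79-fold against JC-WT (1.60 to 5.10), a call that a pseudocount of 2 ended. JC-M3 was 18.7-fold above JC-P (14.4 to 24.8) and 52.2-fold above JC-WT (32.4 to 89.9). Its paralog Rcn1 stood at 57.1 TPM (JC-WT), 71.0 TPM (JC-P) and 78.3 TPM (JC-M3). Rcn3 relative to Rcn1, as a TPM ratio, was 0.0323 in JC-WT (0.0188 to 0.0520), 0.0724 at the JC-P stage (0.0547 to 0.0941) and 1.23 for JC-M3 (1.14 to 1.33), so Rcn3 was the higher of the pair at the last stage alone. With Rcn2 added, Rcn3 made up 1.82% (JC-WT), 3.81% (JC-P) and 41.3% (JC-M3) of the summed TPM of the reticulocalbin genes.

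Serpinh1 was the most abundant member throughout, at 1049 TPM (JC-WT), 1200 TPM (JC-P) and 1239 TPM (JC-M3). It lies on chromosome 7 from 99345376 to 99353239. More than 99% of the measured features had a lower level in each library. JC-P was 1.14-fold above JC-WT (1.12 to 1.17), JC-M3 1.03-fold above JC-P (1.01 to 1.05) and 1.18-fold above JC-WT (1.16 to 1.21). Col1a1, the alpha 1 chain of type I collagen, stood at 132 TPM (JC-WT), 261 TPM (JC-P) and 949 TPM (JC-M3). Serpinh1 relative to Col1a1, as a TPM ratio, was 7.96 in JC-WT (7.70 to 8.23), 4.60 at the JC-P stage (4.50 to 4.71) and 1.31 for JC-M3 (1.28 to 1.33), so it was lowest at the last stage.

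The prolyl 4-hydroxylase alpha subunits, which carry the catalytic site of the tetramer formed with P4hb, diverged in JC-M3. P4ha1 (chromosome 10, 59323296 to 59373304) stood at 89.7 TPM (JC-WT), 99.0 TPM (JC-P) and 173 TPM (JC-M3), from 1981, 2677 and 4896 reads. P4ha2 (chromosome 11, 54100095 to 54131665) stood at 25.9 TPM (JC-WT), 32.5 TPM (JC-P) and 19.0 TPM (JC-M3), from 868, 1331 and 813 reads. P4ha1 was thus highest and P4ha2 lowest in JC-M3. JC-M3 set against JC-P gave a fold of 1.75 for P4ha1 (1.67 to 1.84) and 0.585 for P4ha2 (0.536 to 0.639), each within 2-fold. With chromosome medians subtracted, the log2 ratio in this comparison went from 0.81 to 0.58 for P4ha1 and from -0.76 to -0.72 for P4ha2. For JC-M3 against JC-WT, that of P4ha1 went from 0.95 to 0.53. The TPM ratio of P4ha1 to P4ha2 was 3.46 in JC-WT (3.19 to 3.75), 3.05 at the JC-P stage (2.86 to 3.26) and 9.13 for JC-M3 (8.48 to 9.85). JC-P set against JC-WT gave 1.10 for P4ha1 (1.04 to 1.17) and 1.25 for P4ha2 (1.15 to 1.37), both upward, although P4ha1 turned to a log2 ratio of -0.046 with chromosome medians subtracted. P4hb, which is also a general disulfide isomerase, stood at 2045 TPM (JC-WT), 1890 TPM (JC-P) and 2301 TPM (JC-M3). P4hb relative to P4ha1, as a TPM ratio, was 22.8 in JC-WT, 19.1 at the JC-P stage and 13.3 for JC-M3.

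The lysyl hydroxylases differed from each other in pattern. Plod2, which acts on telopeptide lysines, lies on chromosome 9 from 92542223 to 92608428. It stood at 14.6 TPM (JC-WT), 26.1 TPM (JC-P) and 69.5 TPM (JC-M3), from 423, 926 and 2570 reads. Each step was upward, with JC-P 1.79-fold above JC-WT (1.59 to 2.01), JC-M3 2.66-fold above JC-P (2.47 to 2.87) and 4.75-fold above JC-WT (4.29 to 5.28). Plod1, which acts on lysines of the helix, lies on chromosome 4 from 147909753 to 147936767 and stood at 53.1 TPM (JC-WT), 39.7 TPM (JC-P) and 73.3 TPM (JC-M3). It was lowest at the JC-P stage, with a fold of 0.749 against JC-WT (0.701 to 0.799), and JC-M3 was 1.84-fold above JC-P (1.74 to 1.95). Plod3, which also adds sugars to hydroxylysine, lies on chromosome 5 from 136987019 to 136996648 and stood at 174 TPM (JC-WT), 171 TPM (JC-P) and 237 TPM (JC-M3). For Plod3 the counting interval of JC-P against JC-WT included no difference, at 0.985-fold (0.946 to 1.03), and JC-M3 was 1.39-fold above JC-P (1.34 to 1.44).

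Plod3 supplied most of the summed TPM of the lysyl hydroxylases, with shares of 71.9% (JC-WT), 72.2% (JC-P) and 62.4% (JC-M3). Plod2 supplied 6.06% (JC-WT), 11.0% (JC-P) and 18.3% (JC-M3), and Plod1 22.0% (JC-WT), 16.8% (JC-P) and 19.3% (JC-M3). Plod2 relative to Plod1, as a TPM ratio, was 0.275 in JC-WT (0.247 to 0.306), 0.658 at the JC-P stage (0.607 to 0.712) and 0.948 for JC-M3 (0.901 to 0.999), so Plod1 stayed the higher of the pair while their levels came close. The summed level of the lysyl hydroxylases was 241 TPM (JC-WT), 237 TPM (JC-P) and 380.0 TPM (JC-M3). For the prolyl 4-hydroxylase alpha subunits, P4ha3 included, it was 116 TPM (JC-WT), 131 TPM (JC-P) and 193 TPM (JC-M3).

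**Figure D3:**
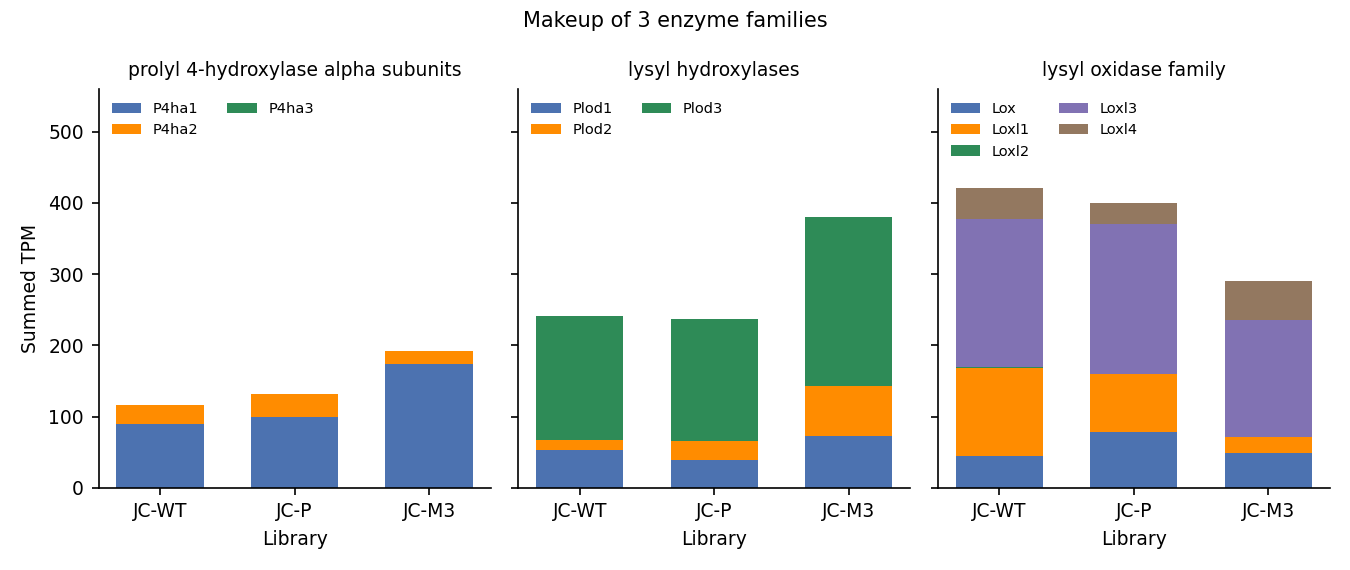
Summed TPM of the genes of 3 enzyme families, 1 bar per library (JC-WT, then JC-P, then JC-M3), with coloured segments for single genes. The hydroxylase sums are highest in JC-M3, at 193 and 380.0 TPM, and the lysyl oxidase sum is lowest there, at 290.4 TPM.

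The lysyl oxidases had another pattern. Lox, the founding member of the family, lies on chromosome 18 from 52516067 to 52529867 and stood at 44.1 TPM (JC-WT), 78.7 TPM (JC-P) and 48.7 TPM (JC-M3), from 1131, 2472 and 1597 reads. It was highest at the JC-P stage, 1.79-fold above JC-WT (1.66 to 1.92), and JC-M3 set against JC-P gave 0.619 (0.581 to 0.659). JC-M3 against JC-WT was 1.10 (1.02 to 1.19). An annotated antisense transcript of Lox, AC161119.1, stood at 23.1 TPM (JC-WT), 39.4 TPM (JC-P) and 16.2 TPM (JC-M3), and without the strand setting its reads and those of Lox cannot be told apart.

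Loxl2, an oxidase that also crosslinks basement membrane collagen, had 3 reads (JC-WT), 6 reads (JC-P) and 6 reads (JC-M3), or 0.10 TPM (JC-WT), 0.17 TPM (JC-P) and 0.16 TPM (JC-M3). It lies on chromosome 14 from 69609068 to 69695834. JC-M3 set against JC-P gave a fold of 0.958 (0.256 to 3.58), and no difference was detectable at this depth. Of its 50-base windows, 45.0% occur in transcripts of other genes, most of them in the pseudogene Gm21451, which is listed at 0 throughout. How shared reads were counted is not stated in the sources, so the level of Loxl2 is uncertain.

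Most transcripts of the lysyl oxidase family came from genes outside the set. Loxl3 supplied 49.4% (JC-WT), 52.6% (JC-P) and 56.8% (JC-M3) of the family's summed TPM, and Lox 10.5% (JC-WT), 19.7% (JC-P) and 16.8% (JC-M3). Loxl1, which acts on elastic fibres, stood at 125 TPM (JC-WT), 80.8 TPM (JC-P) and 22.1 TPM (JC-M3). Its direction was downward at each stage, with a TPM ratio of Loxl1 to Lox of 2.83 in JC-WT (2.63 to 3.04), 1.03 at the JC-P stage (0.964 to 1.09) and 0.453 for JC-M3 (0.409 to 0.501). The family's summed level was 421 TPM (JC-WT), 400.1 TPM (JC-P) and 290.4 TPM (JC-M3).

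In level, the members kept a steady order at the top and a changing one below. Serpinh1, then Plod3, then P4ha1 led in every library. Behind them JC-WT had, from high to low, Plod1, Lox, P4ha2, Plod2, Rcn3, Fkbp10 and Loxl2. JC-P had Lox, Plod1, P4ha2, Plod2, Rcn3, Fkbp10 and Loxl2. JC-M3 had Rcn3, Plod1, Plod2, Fkbp10, Lox, P4ha2 and Loxl2, so Rcn3 and Fkbp10 stood above P4ha2 and Lox there. With 1 library each, the spread around this order is unknown.

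The genomic surroundings of Fkbp10, Rcn3 and Plod2 were compared next. P3h4 lies 860 bases from Fkbp10 on the opposite strand, pointing away from it. It encodes a prolyl 3-hydroxylase family protein that lacks the catalytic domain and, in mice, forms a complex with the products of P3h3 and Plod1. P3h4 had 0 reads (JC-WT), 1 reads (JC-P) and 60 reads (JC-M3), and its level was 4.02 TPM in JC-M3. Set against a floor of 3 JC-WT reads, JC-M3 was at least 15.6-fold higher, which allows for no counting error in the 60 reads, and the exact 95% lower limit was 12.3-fold. Against JC-P the log2 interval was 3.31 to 11.17. P3h4 and Fkbp10 were thus both near the detection limit in JC-WT and JC-P and present in JC-M3, at unequal levels.

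Of the 10 protein-coding genes nearest to Fkbp10 without overlapping it, 5 on each side, 8 were measured. Of the 8, 1 was at least 2-fold higher for JC-M3 against JC-P (P3h4) and 1 lower (the plakoglobin gene Jup, at 7.09 TPM in JC-M3 against 26.7 TPM in JC-P). The other 6 lay within 2-fold. P3h4 averaged 1.36 TPM and counted as measured through JC-M3 alone, so its higher call, here and below, was set by that filter. Around Rcn3, 9 of 10 neighbours were measured and all 9 lay within 2-fold in this comparison, with log2 ratios of -0.52 to 0.43. They included Fcgrt, 768 bases beyond the 5′ end of Rcn3, at 38.9 TPM in JC-M3 against 46.8 TPM in JC-P. Around Plod2, 7 of 10 neighbours were measured, of which 1 was at least 2-fold higher in this comparison and 6 within. The higher one was Plscr2, which starts 267 kb upstream of Plod2, at 3.93 TPM (JC-WT), 1.67 TPM (JC-P) and 15.4 TPM (JC-M3). The 5 downstream neighbours of Plod2 start 1996 to 3017 kb from its start, further away than any neighbour counted around Fkbp10 and Rcn3. Over the nearest measured gene on each side of all 10 members, 1 of 20 was at least 2-fold higher (P3h4) and 1 lower (Csf2, beside P4ha2), against the 3.82% and 5.38% of all features.

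**Figure D4:**
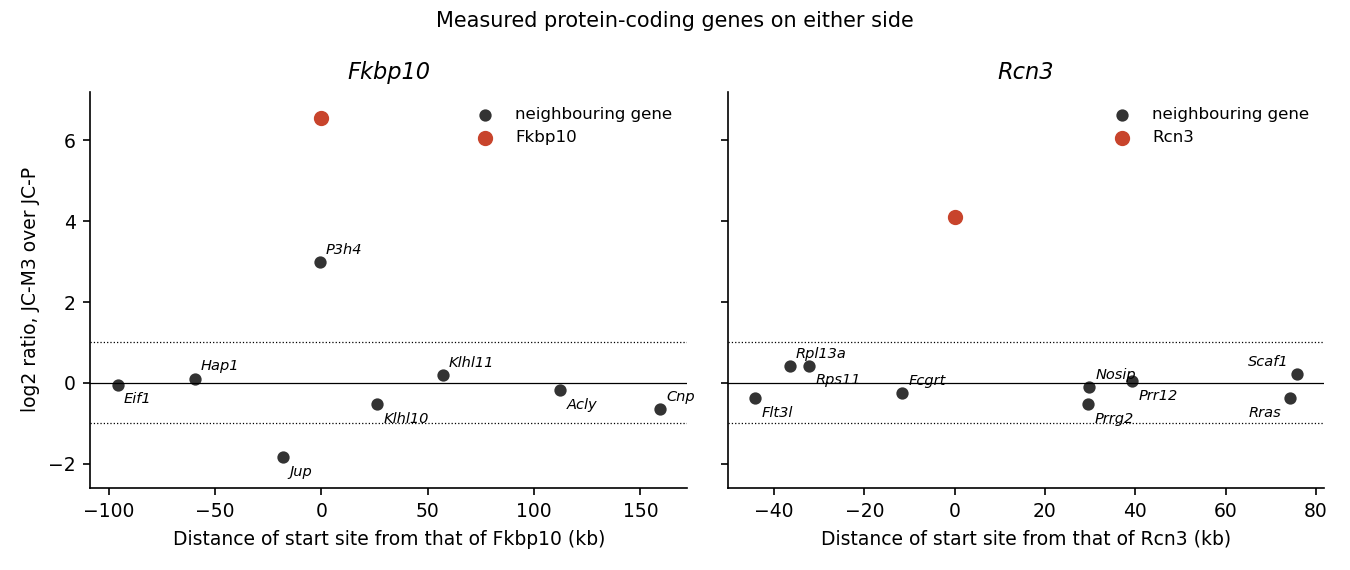
Log2 ratio of JC-M3 over JC-P for Fkbp10 and Rcn3 (red) and the measured protein-coding genes among the 5 nearest on each side (black), by distance of their start sites in kb along the direction of transcription; dotted lines mark 2-fold. P3h4 is the neighbour above the 2-fold line at Fkbp10, and no neighbour of Rcn3 leaves the 2-fold band.

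Genes of most similar pattern were found by the distance between their pairs of log2 ratios (JC-P against JC-WT, JC-M3 against JC-P), among features averaging 10 TPM or more, with 3 libraries behind each pattern. Those nearest to Fkbp10 were Serinc2 (distance 0.36), Myl9 (1.48) and Actg2 (1.77), of which Myl9 stood at 2.08 TPM (JC-WT), 1.31 TPM (JC-P) and 444 TPM (JC-M3). All 3 passed the filter of 10 TPM through JC-M3 alone. For JC-P against JC-WT, Actg2 had a log2 ratio of -1.70, where that of Fkbp10 was 0.035. Those nearest to Rcn3 were Fstl1 (1.04), Ptgfrn (1.45) and Arhgap29 (1.82), of which Fstl1 stood at 7.77 TPM (JC-WT), 14.6 TPM (JC-P) and 132 TPM (JC-M3). Ptgfrn and Arhgap29 passed the filter of 10 TPM through JC-M3 alone. Nearest to Plod2 were the matricellular gene Ccn4 (0.18), Sh3d19 (0.22) and the pseudogene Rpsa-ps12 (0.27). Of these, Ccn4 stood at 12.1 TPM (JC-WT), 24.5 TPM (JC-P) and 66.6 TPM (JC-M3). Lox lay nearest to Gdpd2 (0.058), the ferroxidase gene Cp (0.073) and Tle6 (0.076). Serpinh1 lay nearest to Marchf8, Psmd7 and Wasl, P4ha1 to Tmem200b, Slc22a23 and Rassf5, and P4ha2 to Slc30a4, Tmem161b and Cdc42ep2. Plod1 lay nearest to Troap, Lzic and Mtfr2, and Plod3 to Kntc1, Ccnt1 and Rab3ip. For these 5 members the distances were at most 0.054.

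Of 17 other genes of collagen folding, 14 were measured, with median log2 ratios of 0.21 for JC-P against JC-WT, 0.23 for JC-M3 against JC-P and 0.42 for JC-M3 against JC-WT. At least 2-fold higher were 0, 1 and 3 of the 14 in that order, beside 4.76%, 3.82% and 6.14% of all measured features. Each time 0 were lower. The 1 was P3h4, which counted as measured through JC-M3 alone. It was joined in the last comparison by P3h3, at 16.1 TPM in JC-M3 against 7.25 TPM in JC-WT, and by Fkbp9. Fkbp9, another prolyl isomerase of the endoplasmic reticulum, stood at 55.7 TPM (JC-WT), 66.6 TPM (JC-P) and 120 TPM (JC-M3). Fkbp10 relative to Fkbp9, as a TPM ratio, was 0.552 in JC-M3 (0.517 to 0.590), against 0.0031 in JC-P (0.00085 to 0.0080). Of 10 further FK506-binding protein genes 9 were measured, and 1 was at least 2-fold higher in JC-M3 than in JC-P, Fkbp5 at 19.4 TPM in JC-M3 against 7.10 TPM in JC-P.

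Collagen maturation outside the cell was divided. Of 15 genes, 12 were measured, and for JC-M3 against JC-P 2 were at least 2-fold higher, 2 lower and 8 within. Over all measured features, 3.82% were higher and 5.38% lower in this comparison. The higher ones were Pcolce2, an enhancer of procollagen C-propeptide removal, at 9.17 TPM in JC-M3 against 0.59 TPM in JC-P, and Postn at 4.69 TPM in JC-M3 against 0.56 TPM in JC-P. Pcolce2 counted as measured through JC-M3 alone. Postn, at 1.18 TPM in JC-WT, would likewise have missed the filter without JC-M3, so both higher calls were set by it. The lower ones were Loxl1 and the C-proteinase gene Bmp1, at 40.1 TPM in JC-M3 against 87.4 TPM in JC-P. Of 17 collagen chain genes, 15 were measured. For JC-P against JC-WT, 3 were at least 2-fold higher and 0 lower, beside 4.76% and 2.33% of all measured features. For JC-M3 against JC-P the counts were 5 and 1, beside 3.82% and 5.38%. For JC-M3 against JC-WT they were 8 and 0, beside 6.14% and 5.27%. Col1a2, higher in both comparisons of JC-M3, counted as measured through JC-M3 alone. The list was chosen with earlier results of these data known, so nothing is read from these counts.

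The general chaperones of the endoplasmic reticulum stayed within 2-fold, 17 of 17 in each comparison. Of 14 procollagen export genes, 13 were within 2-fold when JC-P was set against JC-WT, and 14 in both comparisons of JC-M3. The exception was Creb3l1, a transcription factor of collagen genes, at 20.8 TPM (JC-WT), 43.4 TPM (JC-P) and 26.0 TPM (JC-M3). All 14 hypoxia response genes were measured. For JC-M3 against JC-P, 0 were at least 2-fold higher and 2 lower, beside 3.82% and 5.38% of all measured features. One of the lower was Car9, at 20.0 TPM in JC-M3 against 68.1 TPM in JC-P, and the part of hypoxia in the members' levels was not tested. Of 6 copper and ascorbate supply genes, 5 were measured and all stayed within 2-fold. The list summed to 337 TPM (JC-WT), 347 TPM (JC-P) and 275 TPM (JC-M3). Its median log2 ratio was -0.25 for JC-M3 against JC-P and -0.37 for JC-M3 against JC-WT. Atp7a, the copper pump that loads lysyl oxidases, stood at 8.34 TPM (JC-WT), 13.0 TPM (JC-P) and 11.3 TPM (JC-M3).

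**Figure D5:**
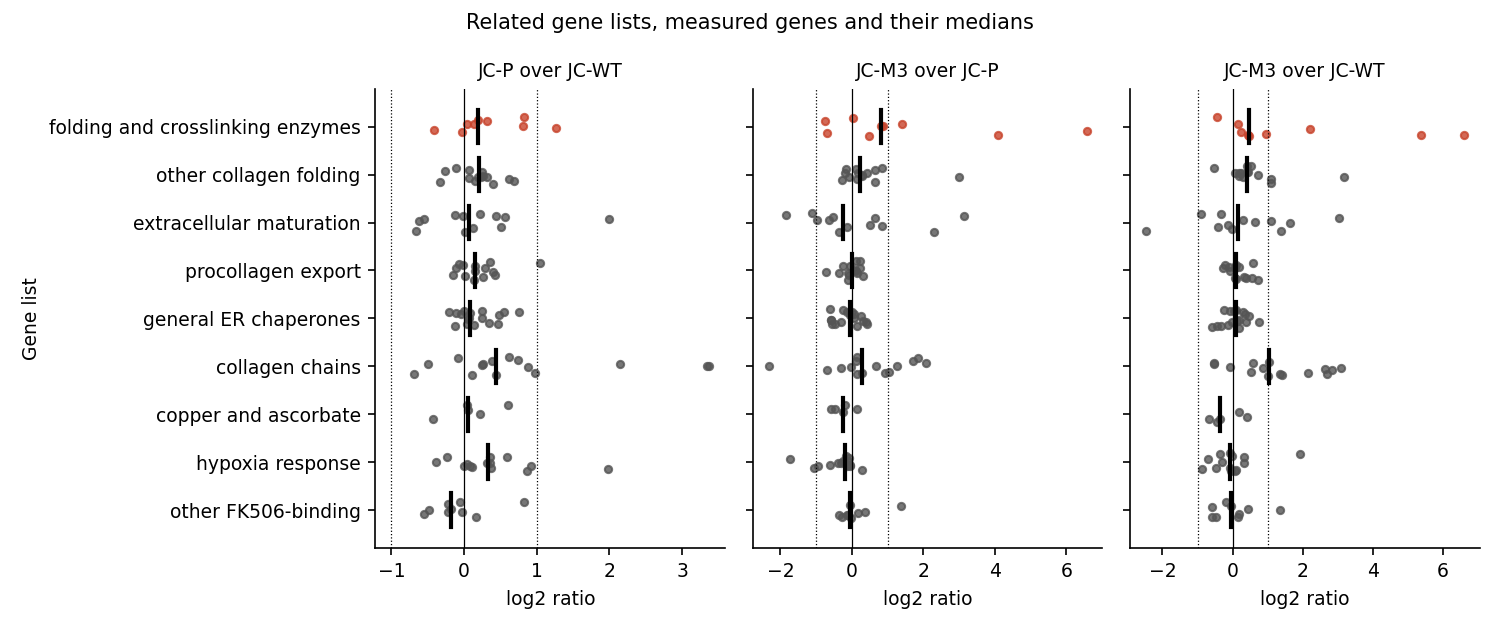
Log2 ratio of TPM + 0.5 of each measured gene of the described set (red) and of 8 related lists (grey), with list medians as black bars and dotted lines at 2-fold, for the 3 comparisons. Fkbp10 and Rcn3 lie furthest to the right in both comparisons of JC-M3, and the general chaperones of the endoplasmic reticulum stay between the dotted lines.

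Markers of other cell types were read beside Fkbp10, Rcn3 and Plod2. Of 6 smooth muscle and pericyte markers, 2 were measured, and the list summed to 22.2 TPM (JC-WT), 8.55 TPM (JC-P) and 648 TPM (JC-M3). Almost all of the last sum was Acta2, at 642 TPM, while Myh11, a defining smooth muscle gene, had 0 reads in JC-M3 and Cnn1 had 2. Of 7 fibroblast markers, 6 were measured, the list summed to 90.5 TPM (JC-WT), 157 TPM (JC-P) and 144 TPM (JC-M3), and Lum had 0 reads throughout. Within that list Dcn stood at 1.24 TPM (JC-WT), 14.0 TPM (JC-P) and 22.5 TPM (JC-M3) and Col1a2 at 0.25 TPM (JC-WT), 0.66 TPM (JC-P) and 4.40 TPM (JC-M3), both highest in JC-M3 like Fkbp10, Rcn3 and Plod2. Of the 6 measured fibroblast markers, 3 were at least 2-fold higher (Dcn, Col1a2 and Col3a1) and 1 lower (Dpt) for JC-M3 against JC-WT. For JC-M3 against JC-P, 1 was higher (Col1a2, measured through JC-M3 alone) and 3 were lower (Pdgfra, Dpt and Col3a1). Dcn and Pdgfrb stayed within 2-fold there. Pdgfra stood at 20.1 TPM in JC-M3 against 47.6 TPM in JC-P, and Col3a1 at 8.76 TPM against 46.0 TPM. The 4 endothelial markers, 1 of them measured, summed to 0.28 TPM (JC-WT), 18.0 TPM (JC-P) and 0.34 TPM (JC-M3), and Kdr had 0 reads throughout. Almost all of the JC-P sum was Cdh5, at 17.7 TPM, the measured gene, which passed the filter through JC-P alone. The 4 leukocyte markers, 1 of them measured, summed to 12.4 TPM (JC-WT), 7.07 TPM (JC-P) and 7.86 TPM (JC-M3), and Ptprc had 0 reads throughout. None of the 3 adipocyte markers was measured, and the 3 lung epithelium markers had 0 reads throughout. The part of other cells in the levels of Fkbp10, Rcn3 and Plod2 was not tested.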

How the data were processed

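Messenger RNA levels were read from 3 cultured populations of JC cells, 1 library each. The authors deposited TPM, reads per gene scaled by gene length to a fixed library sum, as the file headers and sums show. FastQC 0.11.9, STAR 2.7.9a, featureCounts and the builds mm10 and GRCm38 are named by the submitters' processing notes. Neither annotation release nor strand setting is stated.

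Log2 ratios used TPM + 0.5, which shrinks differences of low genes. Features averaging 1 TPM or more counted as measured, and ratios of 2-fold or more as calls. With 1 library per group, nothing was tested. TPM times merged exon length (GENCODE M21, GRCm38; 55230 features) returned whole reads within 0.01 for 98.4% (JC-WT), 98.5% (JC-P) and 98.5% (JC-M3) of expressed features. From these came exact conditional (Clopper-Pearson) 95% intervals, checked on simulated data, and a floor of 3 reads per library. The intervals cover counting error only and treat reads as independent, which duplicate reads are not. The floor allows for no counting error in the reads set against it.

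Named were all 10 members, up to 2 genes at either end of each of 8 related lists per comparison, the 3 most similar patterns per member, and the nearest genomic neighbours. Others, among them Rcn1, Rcn2, P4hb, Jup, Plscr2, overlapping genes and single markers, were named after their values were seen. Members and lists were chosen with earlier results of these data known. Alternatives were other pseudocounts, scalings, filters and thresholds, and subtraction of chromosome medians. Values were computed with scipy 1.17.1, numpy 2.4.6 and pandas 2.3.3 in Python 3.11.15, and plotted with matplotlib 3.10.9.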

Additional observations from a re-analysis of the deposited data

How the results depend on the processing

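No paired analysis was possible because each population had 1 library. For JC-P against JC-WT, the 1 member at least 2-fold higher became 0 with a pseudocount of 2 or a 3-fold threshold, and 3 with a 1.5-fold threshold (Rcn3, Plod2 and Lox). For JC-M3 against JC-P, a 1.5-fold threshold gave 5 higher (Fkbp10, Rcn3, P4ha1, Plod1 and Plod2) and 2 lower (P4ha2 and Lox), beside 3 and 0 at 2-fold. The median of the members for JC-M3 against JC-P, 0.81, became 0.64 without the filter, which adds Loxl2, and 0.58 with chromosome medians subtracted. A 3-fold threshold there kept 2 higher. The other counts stayed within 1.5 times the values given. Under the other alternatives, the median for JC-M3 against JC-P lay between 0.797 and 0.813. The median for JC-P against JC-WT, 0.19, became 0.27 with chromosome medians subtracted and otherwise lay between 0.171 and 0.194. For JC-M3 against JC-WT, the median of 0.46 lay between 0.450 and 0.490 under all alternatives. Of 135 values of single members under those alternatives, 129 moved by less than 0.5 of the width of their counting interval and 6 by more, all 6 with chromosome medians subtracted, and 0 called values changed direction. The largest shift was 1.63 on the log2 scale, for Fkbp10 in JC-M3 against JC-WT with a pseudocount of 2. Depth limits Fkbp10 in JC-P and JC-WT and Loxl2 in each library, at 6 reads or fewer.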
